A study of Ovis aries with 6 samples.

Results

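The collagen genes are the 43 genes, of 26741 in the deposited matrices, whose sheep symbol is COL, a number, A and a number. All 43 were taken by symbol alone, with no expression value, and were followed through every nucleus class of the rumen epithelium of 6 male lambs. Nuclei from frozen tissue of the ventral sac, the lower chamber of the forestomach, were profiled in droplets, with 1 library per lamb. The 6 lambs fall into 3 of a group named MGNS and 3 of a group named MGHS, the sheep of each having been picked at random per the labels. The labels do not spell out the group names or give the age, and the title speaks only of extra feed given to sheep at pasture. The tissue was rinsed in saline, cut up and snap frozen before the nuclei were isolated, so the libraries hold nuclear RNA.

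Collagens are extracellular proteins built of 3 chains wound into a helix. Fibrillar collagens form the rope-like fibrils of connective tissue and are known mainly as products of fibroblasts, while type IV collagens form the sheet of the basement membrane on which an epithelium sits. In a stratified epithelium such as the rumen lining, type XVII collagen sits in the hemidesmosomes that hold basal keratinocytes to that sheet, and type VII collagen makes the anchoring fibrils beneath it. Keratinocytes then move up through the spinous and granular layers.

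The libraries held 34418856 to 59997793 UMIs (unique molecular identifiers, each counted as 1 captured RNA molecule), and 41822 nuclei were retained, 4830 to 10201 per lamb, with median depths of 3123 to 4764.5 UMIs. Pairs of libraries shared 19 to 49 cell barcodes. Clusters were made without the collagen genes and were named from marker transcripts. The stromal classes were fibroblast-like (3385 nuclei), smooth muscle or pericyte-like (2701), blood endothelial-like (1560) and lymphatic endothelial-like (755). The keratinocyte-like classes were basal-like (6052), cycling (1579), spinous-like (2513) and granular-like (3682). T or NK-like nuclei (7908), immune cells not known as a source of fibrillar collagen, served as the measured background. Levels are CPM, the counts of a gene in the nuclei of a class summed per animal and scaled to a common total, with no correction for gene length, so a level is compared between classes and animals and never between genes. Levels by class are descriptions without a test, because the classes were made from the same nuclei.

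Of the 43 collagens, 14 had their highest mean level in fibroblast-like nuclei, among them the chains of types I and III and most chains of type V and of the type VI beaded filaments. COL3A1, the chain of type III fibrils, averaged 5557 CPM there against 1362 CPM in smooth muscle or pericyte-like nuclei, and was higher in the fibroblast-like class in 6 of 6 animals. COL1A1 (1987 CPM) and COL1A2 (3737 CPM), the chains of type I collagen, also stood highest in fibroblast-like nuclei in 6 of 6 animals, as did COL5A1 (170 CPM) and COL5A2 (1222 CPM), whose type V product sets fibril diameter. So did 3 chains of type VI beaded filaments, COL6A1 (432 CPM), COL6A2 (226 CPM) and COL6A3 (715 CPM), the fibril-associated COL12A1 (2365 CPM) and COL14A1 (618 CPM), and the short chain COL8A1 (430 CPM). COL6A5, COL27A1 and COL7A1 led there less evenly, in 3, 4 and 4 of 6 animals over the next class.

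**Figure D1:**
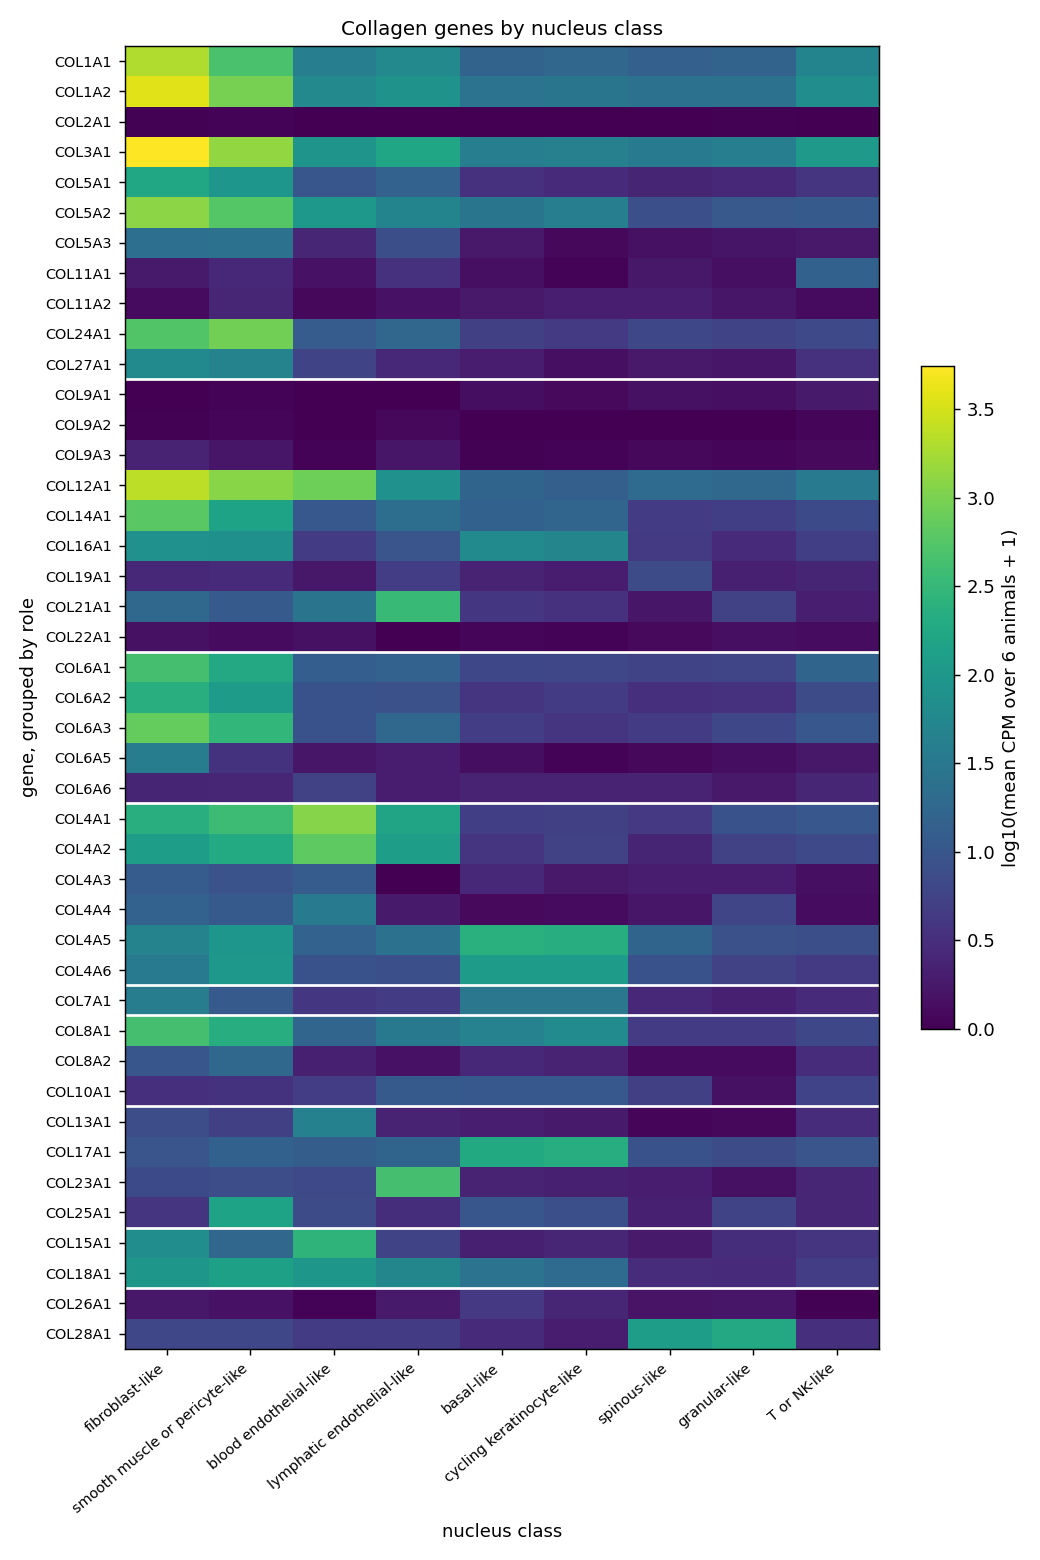
Mean level of each collagen gene (rows, grouped by role with white lines between groups) in 9 nucleus classes (columns), as log10 of the mean CPM over 6 animals plus 1. COL1A1, COL1A2, COL3A1, COL5A1, COL5A2, COL6A1, COL6A2 and COL6A3 are brightest in the fibroblast-like column, COL4A1 and COL4A2 in blood endothelial-like, COL17A1, COL4A5 and COL4A6 in basal-like and cycling keratinocyte-like, and COL28A1 in the spinous-like and granular-like columns.

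Other classes had collagens of their own. COL4A1 (1169 CPM) and COL4A2 (663 CPM), the chains of the common basement membrane network, were highest in blood endothelial-like nuclei in 6 of 6 animals, as were COL15A1 (274 CPM), a basement membrane proteoglycan, and the membrane-spanning COL13A1 (42.5 CPM). COL4A4 also had its highest mean there (35.1 CPM). Lymphatic endothelial-like nuclei had the highest COL21A1 (336 CPM) and COL23A1 (429 CPM), and smooth muscle or pericyte-like nuclei the highest COL24A1 (876 CPM), COL25A1 (147 CPM) and COL8A2 (16.6 CPM). COL17A1 averaged 211 CPM in cycling and 187 CPM in basal-like keratinocytes. Among the classes, COL4A5 (235 CPM) and COL4A6 (116 CPM), a pair of basement membrane chains from adjacent genes, were highest in basal-like nuclei. COL28A1 was highest in granular-like nuclei (184 CPM).

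The remaining 15 collagens were sparse or led in a sparse class. In all, 14 had their highest mean in the 335 glia-like nuclei, whose median of 433 UMIs makes each UMI weigh heavily. They included COL18A1 (138 CPM, against 134 CPM in smooth muscle or pericyte-like nuclei) and COL16A1 (79.3 CPM, against 78.7 CPM in fibroblast-like nuclei), which cannot be ranked on such depth. The other glia-led genes were COL2A1, COL4A3, COL5A3, COL6A6, COL9A1, COL9A2, COL10A1, COL11A1, COL11A2, COL19A1, COL22A1 and COL26A1. Of the collagens best known from cartilage, COL2A1, COL9A2 and COL9A1 were close to undetected, with 5, 8 and 103 UMIs in all retained nuclei. COL11A2, COL11A1 and COL10A1 had more, with 147, 401 and 1187 UMIs. COL9A3, with 63 UMIs, had its highest mean in B or plasma-like nuclei.

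Fibroblast-like nuclei came from 2 clusters that differed in collagens although collagens were left out of the clustering. Cluster 0 (2245 nuclei) averaged 3090 CPM of COL12A1, a fibril-associated collagen of load-bearing tissue, against 538 CPM in cluster 6 (1140 nuclei). COL14A1, another fibril-associated chain, went the other way, at 292 CPM in cluster 0 and 1415 CPM in cluster 6. These ranges over animals did not overlap, with 2315 to 3735 CPM against 225 to 763 CPM for COL12A1 and 160 to 482 CPM against 1043 to 1643 CPM for COL14A1. COL24A1 averaged 693 CPM in cluster 0 and 135 CPM in cluster 6. COL7A1, the anchoring fibril chain, was found mainly in cluster 0, at 21.4 to 76.1 CPM per animal against 2.61 to 11.02 CPM in cluster 6. Cluster 0 made up 73.4%, 75.1% and 50.7% of fibroblast-like nuclei in MGNS 1 to 3, against 67.7%, 64.8% and 75.5% in MGHS 1 to 3.

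The smooth muscle or pericyte-like class was split in a similar way. Cluster 20, whose leading genes include CTNNA3, RGS6 and the pericyte markers RGS5 and ABCC9, averaged 1382 CPM of COL24A1 (976 to 2052 CPM over animals) against 574 CPM in cluster 16, named smooth muscle or myofibroblast, whose leading genes include CNTNAP2, KCNAB1, RSPO3, MYH11, HHIP and ACTG2. COL25A1, a membrane-spanning collagen, averaged 7.20 CPM in cluster 20 and 213 CPM in cluster 16, where it ranged from 8.14 CPM in MGNS 3 to 394 CPM in MGHS 1. COL12A1 averaged 562 CPM in cluster 20 and 1578 CPM in cluster 16. The network chains ran the other way, with COL4A1 at 533 CPM in cluster 20 and 293 CPM in cluster 16. COL4A6 averaged 213 CPM in cluster 20 (173 to 298 CPM over animals), above the 116 CPM of the basal-like class. Its range overlapped that of cluster 2 of the basal-like class, which averaged 176 CPM (135 to 249 CPM). COL4A5 averaged 182 CPM in cluster 20, against 235 CPM in the basal-like class and 316 CPM in its cluster 2.

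Among keratinocytes, collagens were layered. To compare layers of different depth with the T or NK-like background, UMIs were also taken per 1000 nuclei. COL17A1 was found at 1624, 1784 and 1164 UMIs per 1000 basal-like nuclei in MGNS 1 to 3, against 1644, 1257 and 1550 in MGHS 1 to 3. Every animal was far above its own T or NK-like nuclei, with a ratio of means of 59.6 in basal-like and 70.0 in cycling keratinocytes, 3.16 in spinous-like and 2.28 in granular-like nuclei. Deeper nuclei collect more UMIs of any kind, and the median depth was 2583.5 UMIs in T or NK-like, 7340 in basal-like, 7460 in cycling, 10556 in spinous-like and 8710.5 in granular-like nuclei. Thinned to 1000 UMIs per nucleus, 16.8% of basal-like and 19.5% of cycling nuclei had a COL17A1 UMI, against 0.965% of spinous-like, 0.669% of granular-like, 0.681% of fibroblast-like and 0.674% of T or NK-like nuclei. Unthinned, these shares were 58.2%, 66.2%, 6.21%, 4.73%, 2.87% and 2.12%. At equal depth the granular-like and fibroblast-like shares were at the T or NK-like background.

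The same basal and cycling pattern was seen for other collagens, not all of them of the epithelial anchor. COL4A5 ran from 1455 to 2466 UMIs per 1000 basal-like nuclei, 93.1 times the T or NK-like mean, and its ratio was 88.0 in cycling, 7.71 in spinous-like and 3.33 in granular-like nuclei. COL4A6 had ratios of 95.2, 94.1, 7.94 and 4.35 in the same order. In CPM, which scales for depth, the granular-like means were 7.39 for COL4A5 and 4.57 for COL4A6. Those of T or NK-like nuclei were 7.01 and 3.34 CPM. Per nucleus, neutrophil-like nuclei held COL17A1 at 2.94, COL4A5 at 6.93 and COL4A6 at 4.05 times the T or NK-like mean. B or plasma-like nuclei held them at 3.40, 2.88 and 6.18 times it. The spinous-like and granular-like ratios of these genes are of similar size, so their background depends on the immune class taken. COL7A1 ran from 181 to 278 UMIs per 1000 basal-like nuclei in the 6 animals, 43.1 times the T or NK-like mean. The fibril-associated COL16A1, the short chain COL8A1 and the heparan sulphate-bearing COL18A1 were 39.1, 22.4 and 19.03 times the T or NK-like mean in basal-like nuclei. In cycling nuclei COL7A1, COL8A1, COL16A1 and COL18A1 were each at least 2 times the T or NK-like level per nucleus in all 6 animals.

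Within the basal-like class, cluster 2 held more of these genes per nucleus than cluster 1, at similar median depths of 7240 and 7436.5 UMIs. COL17A1 averaged 2265 UMIs per 1000 nuclei in cluster 2 and 1009 in cluster 1. COL8A1 averaged 759 against 83.8, and COL7A1 390 against 129. The ranges over animals did not overlap, with 1674 to 2996 against 764 to 1197 for COL17A1, 475 to 1026 against 26.7 to 138 for COL8A1 and 289 to 452 against 101 to 152 for COL7A1.

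COL28A1, a little-studied collagen of the von Willebrand domain group, had the opposite layering. It was found at 2833, 720 and 1945 UMIs per 1000 granular-like nuclei in MGNS 1 to 3, against 1514, 1242 and 2095 in MGHS 1 to 3, and at 813 to 1590 per 1000 spinous-like nuclei. The ratio to the T or NK-like mean was 264 in granular-like and 190 in spinous-like nuclei, against 2.11 in basal-like and 1.30 in cycling nuclei. After thinning, 14.5% of granular-like and 9.93% of spinous-like nuclei had a COL28A1 UMI, against 0.177% of basal-like and 0.189% of T or NK-like nuclei; unthinned, the shares were 57.0%, 40.4%, 1.19% and 0.556%.

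**Figure D2:**
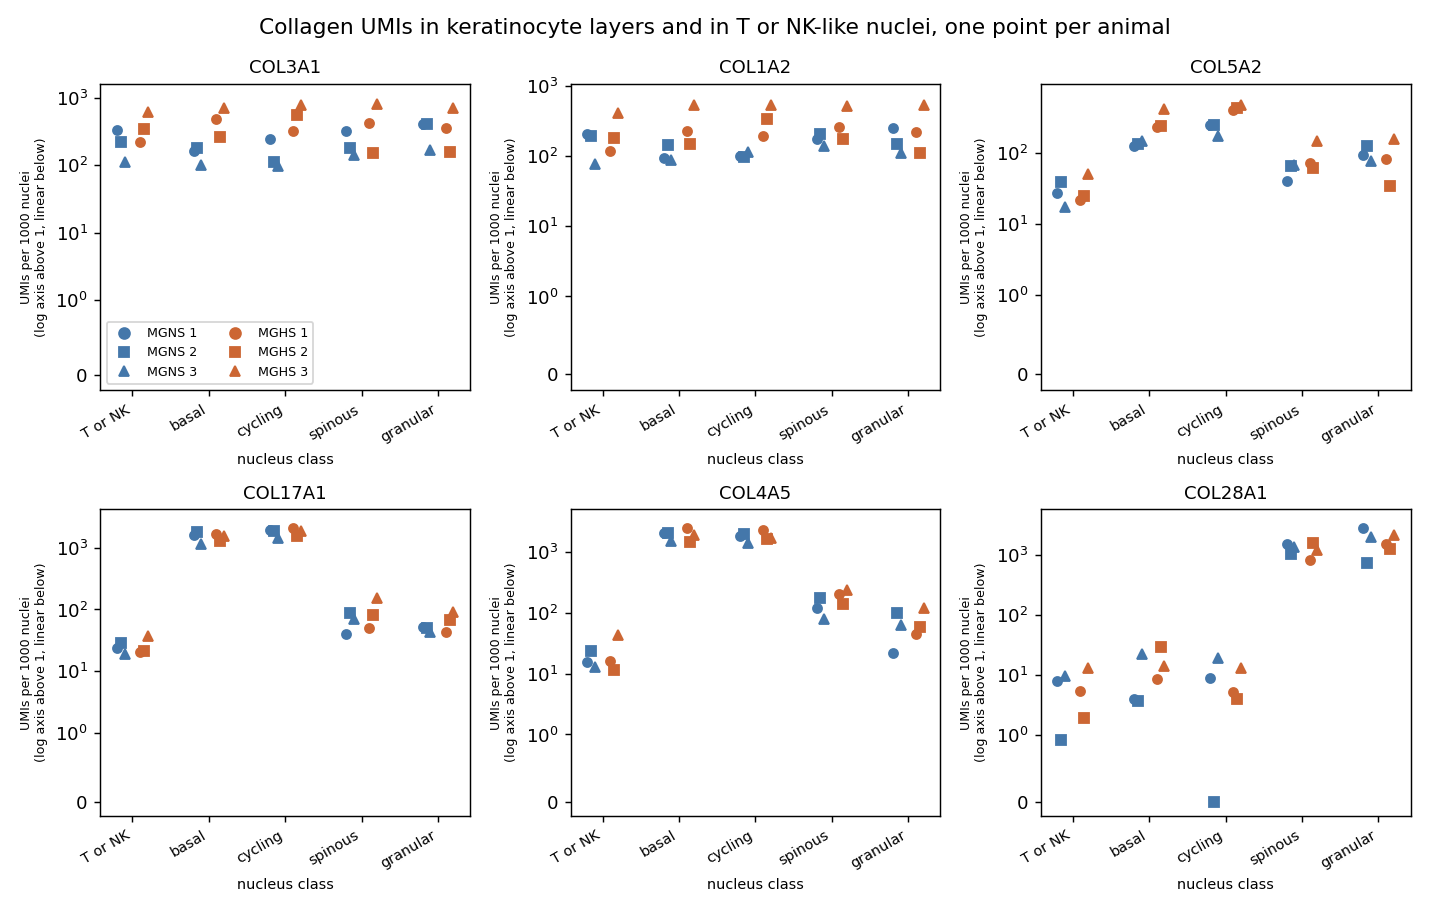
UMIs per 1000 nuclei (log axis above 1, linear below) of 6 collagens in T or NK-like nuclei and in 4 keratinocyte-like classes, 1 point per animal, MGNS in blue and MGHS in orange. COL3A1 and COL1A2 lie in 1 band across all 5 classes, COL17A1 and COL4A5 stand above T or NK-like nuclei mainly in basal and cycling nuclei, COL28A1 does so in spinous and granular nuclei, and COL5A2 lies above T or NK-like nuclei in basal and cycling nuclei.

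Transcripts of COL1A1, COL1A2 and COL3A1 were also counted in keratinocyte-like nuclei, with means per nucleus close to those of the T or NK-like nuclei. COL3A1 stood at 163, 179 and 102 UMIs per 1000 basal-like nuclei in MGNS 1 to 3, against 476, 262 and 701 in MGHS 1 to 3. In T or NK-like nuclei it stood at 338, 220 and 113 and at 218, 343 and 610. The ratio of the 2 means was 1.02, with a range over animals from 0.484 to 2.18, although basal-like nuclei were deeper. The ratios for COL3A1 were 1.14 in cycling, 1.10 in spinous-like and 1.19 in granular-like nuclei, and those of COL1A1 and COL1A2 over the 4 layers ran from 0.810 to 0.961 and from 1.05 to 1.25. Among other immune classes, COL3A1 stood at 2.35 times the T or NK-like mean in B or plasma-like and 0.631 times it in neutrophil-like nuclei.

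Seen per nucleus, these UMIs were few and unevenly spread. A COL3A1 UMI was found in 17.3% of basal-like and 14.4% of T or NK-like nuclei, and after thinning in 3.49% and 6.93%; in fibroblast-like nuclei (median 3760 UMIs) the shares were 96.8% and 90.5%. The 1% of nuclei with the most COL3A1 held 34.0% of its UMIs in the basal-like and 39.4% in the T or NK-like class, against 6.30% in the fibroblast-like class. For COL17A1, which basal-like nuclei hold far above the background, the 1% share in that class was 7.08%. Droplets with under 300 genes, taken as a second background, also held COL3A1 UMIs, at 72.1 to 84.1 per 1000 in the MGNS and 133 to 259 per 1000 in the MGHS animals. Their median depth ran from 177 UMIs in MGHS 2 to 347 UMIs in MGHS 3. These counts per droplet therefore cannot be set beside those of the deeper nuclei, and they carry the depth differences between animals.

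Other collagens led by fibroblast-like nuclei stood above the T or NK-like level in basal-like nuclei, among them COL7A1 and COL8A1, given above, and COL5A2, the second chain of type V collagen. In basal-like nuclei COL5A2 stood at 124, 132 and 146 UMIs per 1000 in MGNS 1 to 3, against 228, 238 and 408 in MGHS 1 to 3, against 27.4, 39.0 and 17.3 and 21.6, 25.0 and 50.8 in T or NK-like nuclei. The ratio of means was 7.04 in basal-like (13.1 in cluster 2 and 3.12 in cluster 1), 10.8 in cycling, 2.49 in spinous-like and 3.15 in granular-like nuclei. These ratios carry the greater depth of keratinocyte-like nuclei. In CPM, COL5A2 averaged 27.1 in basal-like (49.7 in cluster 2 and 11.8 in cluster 1) and 39.3 in cycling nuclei. It averaged 10.2 CPM in granular-like nuclei, against 10.4 CPM in T or NK-like nuclei. In spinous-like nuclei it averaged 5.02 CPM in MGNS and 9.64 CPM in MGHS. Per 100 UMIs of COL3A1, basal-like nuclei held 48.0 to 144 of COL5A2 over animals, against 16.1 to 33.3 in fibroblast-like nuclei, 7.30 to 17.7 in T or NK-like nuclei and 13.4 to 26.0 in droplets under 300 genes. COL1A2 per 100 UMIs of COL3A1 overlapped between the same classes, at 47.7 to 86.1, 58.3 to 76.8, 52.5 to 88.4 and 70.5 to 99.7. Of the 43 collagens, 24 had at least 100 UMIs in basal-like nuclei, 16 of these were above T or NK-like nuclei in 6 of 6 animals and 12 at least 2 times above in all 6. Those 12 were COL4A5, COL4A6, COL5A2, COL7A1, COL8A1, COL10A1, COL16A1, COL17A1, COL18A1, COL21A1, COL25A1 and COL26A1. These counts are of UMIs per nucleus, and basal-like nuclei were deeper than T or NK-like nuclei. In CPM, COL5A2, COL10A1, COL21A1 and COL25A1 were not 2 times above in every animal, while the rest of the 12 were. COL21A1 in MGHS 2 stood at 0.619 CPM in basal-like and 0.763 CPM in T or NK-like nuclei.

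MGHS was then compared with MGNS, in UMIs summed per animal over each class, with edgeR's quasi-likelihood test and p-values adjusted over all genes tested. No collagen passed an adjusted p of 0.05 in any class, and few genes of any kind did; the counts below are therefore of unadjusted p-values and of groups that do not overlap, beside the same shares of all genes. In whole-tissue sums, where fewer cells of a type and less RNA per cell cannot be told apart, 40 collagens were tested and 0 passed (0 of all genes, 0%). Of the 40, 16 were higher at an unadjusted p under 0.05, where 9.39% of all genes were, 0 were lower, where 10.5% were, and 12 did not overlap with MGHS higher, where 7.84% of all genes did. At an adjusted p of 0.05, DESeq2 called 8 collagens (8.08% of all genes) and limma-voom 4 (1.62%); DESeq2's shares are of the genes it gives an adjusted p, here 38 collagens. The median log2 fold change was 0.59 over the collagens and -0.01 over all genes.

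COL3A1 stood at 374, 242 and 321 CPM in MGNS 1 to 3, against 683, 680 and 810 CPM in MGHS 1 to 3 in the whole-tissue sums. All MGHS animals were above all MGNS animals, with a log2 fold change of 1.32 ± 0.22 (SE) and an adjusted p of 0.0973 with edgeR. COL1A2 stood at 224, 189 and 203 CPM and 426, 435 and 600 CPM (1.35 ± 0.20 SE, adjusted p = 0.0966). COL1A1 stood at 136, 121 and 111 CPM and 199, 243 and 298 CPM (1.12 ± 0.19 SE, adjusted p = 0.0973), again without overlap. DESeq2 put these fibrillar genes past the threshold. COL5A2 (0.82 ± 0.16 SE, adjusted p = 0.102) and COL5A1 (1.11, adjusted p = 0.118) followed. The sum of all 43 collagens was 1854, 1423 and 1942 CPM in MGNS 1 to 3, against 2786, 2847 and 3163 CPM in MGHS 1 to 3. Among further collagens, the group means put COL6A3 at 57.1 ± 5.92 and 84.0 ± 13.9 CPM, COL7A1 at 10.3 ± 0.623 and 15.5 ± 0.571 CPM, COL4A1 at 62.2 ± 13.9 and 95.4 ± 23.9 CPM, COL4A2 at 36.9 ± 8.89 and 51.4 ± 13.7 CPM and COL17A1 at 58.1 ± 8.59 and 67.1 ± 8.82 CPM in MGNS and MGHS (SD, n = 3 each). COL9A1 was the only collagen without overlap in the other direction, where 22.3% of all genes lay, on 103 UMIs in all. Fibroblast-like nuclei made up 6.998%, 4.87% and 11.4% of nuclei in MGNS 1 to 3, against 10.7%, 8.88% and 7.03% in MGHS 1 to 3, ranges that overlapped.

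Within fibroblast-like nuclei, 31 collagens were tested and 30 had a log2 fold change above 0 (51.8% of all genes). None passed an adjusted p of 0.05 with edgeR (0.113% of all genes did), DESeq2 called 6 (2.5% of all genes) and limma-voom 2 (0.365%). At an unadjusted p under 0.05, 10 of the 31 were higher in MGHS (7.14% of all genes), 0 were lower (6.32%), and 10 did not overlap (9.24% of all genes). The median log2 fold change was 0.48, against 0.02 over all genes. Of the roles, 6 of 8 tested fibrillar chains had an unadjusted p under 0.05, 2 of 6 basement membrane chains, COL7A1, COL8A2, and none of the 4 beaded filament or 4 fibril-associated chains tested.

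The smallest p-values among the collagens of this class were those of COL7A1 and COL4A6, chains of the zone where epithelium meets connective tissue. COL7A1 stood at 24.8, 17.7 and 21.8 CPM in MGNS 1 to 3, against 56.1, 48.1 and 57.7 CPM in MGHS 1 to 3. Groups did not overlap, with a log2 fold change of 1.33 ± 0.20 (SE) and an edgeR adjusted p of 0.0567. COL4A6 stood at 19.6, 22.5 and 18.7 CPM and 44.0, 51.3 and 50.9 CPM, also without overlap (1.27 ± 0.20 SE, adjusted p = 0.0587). Its neighbour COL4A5 stood at 43.5, 32.5 and 21.1 CPM and 56.8, 51.3 and 68.2 CPM (0.87 ± 0.27 SE, adjusted p = 0.239). Summed markers of basal keratinocytes, where both are also high, stood at 798 to 1074 CPM in the MGNS and 1063 to 1173 CPM in the MGHS fibroblast-like sums, with all 12 markers detected and 9 over 10 CPM, and their part in these values was not tested. COL17A1, the gene that marks those cells among the collagens, stood at 6.85 ± 2.17 and 10.7 ± 3.63 CPM (SD, n = 3 each) in MGNS and MGHS.

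Most fibrillar collagens tested in this class also stood higher in MGHS. COL3A1 stood at 4062, 3723 and 2897 CPM in MGNS 1 to 3, against 6040, 7554 and 9066 CPM in MGHS 1 to 3, without overlap (1.09 ± 0.24 SE, adjusted p = 0.126). COL1A2 stood at 2370, 2861 and 1842 CPM and 3792, 5001 and 6559 CPM, also without overlap (1.12 ± 0.27 SE, adjusted p = 0.148). In COL1A1 the groups overlapped, at 1416, 1871 and 1049 CPM and 1775, 2789 and 3020 CPM (0.81 ± 0.29 SE, adjusted p = 0.291), since MGHS 1 lay below MGNS 2. COL5A1 stood at 132, 101 and 116 CPM and 198, 233 and 238 CPM, again apart (0.94 ± 0.17 SE, adjusted p = 0.0728). COL24A1 stood at 388, 285 and 315 CPM and 809, 903 and 467 CPM (1.15 ± 0.28 SE, adjusted p = 0.143), and COL27A1 at 50.5, 46.4 and 39.8 CPM and 85.4, 66.4 and 63.3 CPM (0.66 ± 0.20 SE, adjusted p = 0.230). The gap was small in COL5A2, with 1057, 1239 and 848 CPM against 1299, 1435 and 1457 CPM.

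**Figure D3:**
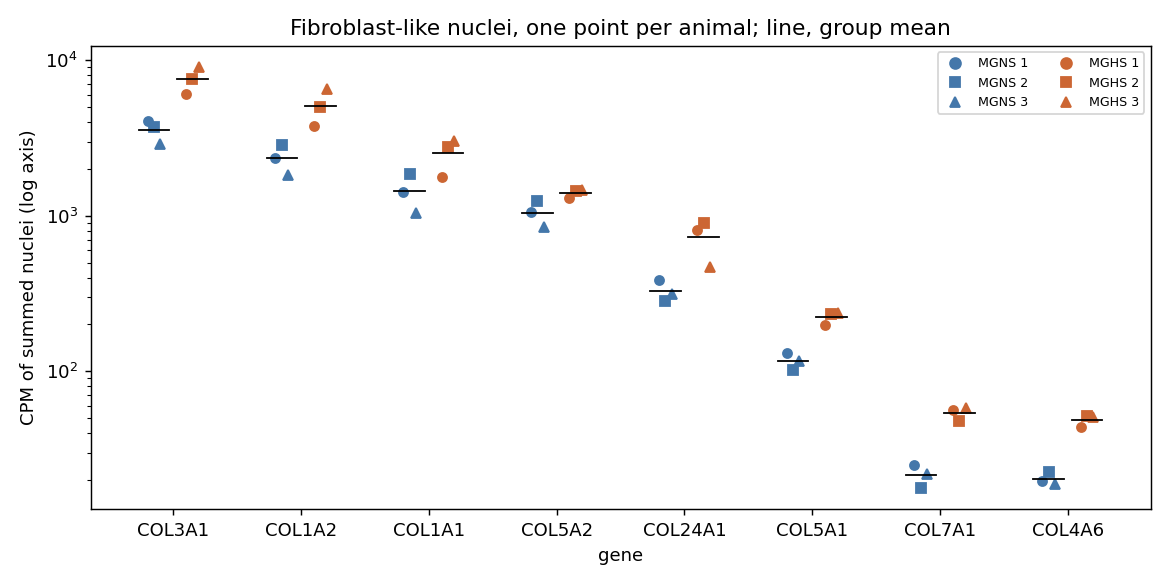
CPM (log axis) of 8 collagens in the fibroblast-like nuclei of each animal, MGNS in blue and MGHS in orange, with a line at each group mean. MGHS animals lie above MGNS animals in all of these genes except COL1A1, where MGHS 1 at 1775 CPM is below MGNS 2 at 1871 CPM.

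Among the remaining roles, COL8A2, a short chain network collagen, stood at 5.15, 5.26 and 8.19 CPM in MGNS 1 to 3, against 9.78, 15.2 and 11.7 CPM in MGHS 1 to 3, without overlap (0.96 ± 0.33 SE, adjusted p = 0.283 with edgeR). The beaded filament sum was 1257, 1329 and 1293 CPM in MGNS 1 to 3, against 1518, 1491 and 1575 CPM in MGHS 1 to 3, a small gap without overlap. COL6A3 overlapped, at 534, 775 and 572 CPM and 855, 734 and 822 CPM. The fibril-associated sum was 3689, 2436 and 2947 CPM and 3116, 3476 and 2825 CPM, with COL12A1 at 2943, 1858 and 1851 CPM and 2579, 2700 and 2256 CPM. COL14A1, at 674, 482 and 1001 CPM and 441, 665 and 445 CPM, was highest in MGNS 3, the animal in which cluster 6 took its largest share of the class. The network chains COL4A1 (210 ± 22.6 and 231 ± 61.2 CPM) and COL4A2 (115 ± 10.4 and 124 ± 19.1 CPM) were close in both groups (SD, n = 3 each). Summed smooth muscle markers in the same sums were 252 to 415 CPM in MGNS and 536 to 856 CPM in MGHS, and their part in the fibrillar values was not tested.

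The 2 fibroblast-like clusters were fitted alone, a choice made after the clusters were seen. In cluster 0, 10 of 28 tested collagens had an unadjusted p under 0.05 with MGHS higher (6.2% of all genes), 0 with MGHS lower (6.16%), and 11 did not overlap (7.71%); none passed the adjusted threshold with edgeR (0.115% of all genes) and DESeq2 called 5 (2.26%). In cluster 6 these counts were 6 of 21 (6.27%), 0 (5.92%) and 6 (7.95%), and COL16A1 was lower without overlap (9.8%), with none past the adjusted threshold (0.443% of all genes), DESeq2 calling 5 (2.18%) and limma-voom 3 (0.579%). COL3A1 stood at 4194, 3925 and 3544 CPM and 5974, 7134 and 9191 CPM in cluster 0, and at 3648, 3001 and 2097 CPM and 6202, 8474 and 8588 CPM in cluster 6, so that the groups were apart in both. COL7A1 in cluster 0 stood at 31.5, 21.4 and 37.4 CPM in MGNS 1 to 3, against 76.1, 66.8 and 69.9 CPM in MGHS 1 to 3, and was not tested in cluster 6.

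In smooth muscle or pericyte-like nuclei, 29 collagens were tested and 26 had a log2 fold change above 0 (53.7% of all genes), with a median of 0.47. None passed the adjusted threshold with edgeR (0% of all genes) and DESeq2 called 2 (1.72%). At an unadjusted p under 0.05, 10 were higher in MGHS (6.1% of all genes), 0 were lower (6.06%) and 9 did not overlap (7.51%). COL3A1 stood at 758, 874 and 1041 CPM in MGNS 1 to 3, against 1760, 1899 and 1842 CPM in MGHS 1 to 3, without overlap (1.10 ± 0.22 SE, adjusted p = 0.158). COL1A2 (623, 712 and 637 CPM and 1109, 1037 and 1598 CPM; 0.97 ± 0.23 SE, adjusted p = 0.197) and COL1A1 (291, 372 and 286 CPM and 453, 506 and 868 CPM; 0.99 ± 0.27 SE, adjusted p = 0.230) were likewise apart. Both showed their highest value in MGHS 3.

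Further fibril genes of this class pointed the same way. COL5A1 stood at 67.3, 64.9 and 78.0 CPM and 99.9, 119 and 119 CPM (0.74 ± 0.17 SE, adjusted p = 0.183), and COL5A2 at 400, 435 and 513 CPM and 708, 762 and 615 CPM. COL16A1, a fibril-associated chain, stood at 51.5, 63.7 and 58.9 CPM and 103, 100 and 77.3 CPM (0.74 ± 0.20 SE, adjusted p = 0.230). None of these overlapped. Cluster 20 made up 32.9%, 44.4% and 42.7% of the class in MGNS 1 to 3, against 31.5%, 31.5% and 32.8% in MGHS 1 to 3. COL16A1 averaged 17.9 CPM in that cluster, and the part of the cluster mix in the class values was not tested. COL24A1 and COL12A1, which are high in this class, overlapped, at 590, 829 and 1041 CPM and 1154, 902 and 743 CPM and at 1200, 982 and 1367 CPM and 1234, 1248 and 1288 CPM. COL25A1 varied most between animals, at 188, 34.96 and 5.83 CPM and 273, 168 and 214 CPM. Group means in MGNS and MGHS were 313 ± 62.2 and 433 ± 86.7 CPM for COL4A1, 164 ± 33.0 and 220 ± 66.4 CPM for COL4A2, 296 ± 87.3 and 315 ± 23.3 CPM for COL6A3, 13.8 ± 3.38 and 12.9 ± 8.61 CPM for COL17A1 and 10.2 ± 4.38 and 11.1 ± 1.45 CPM for COL7A1 (SD, n = 3 each). Summed smooth muscle markers were 3069 to 4182 CPM in MGNS and 4795 to 8328 CPM in MGHS, and T or NK markers 433 to 973 CPM and 167 to 310 CPM; their part in the collagen values was not tested.

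The clusters of this class were also fitted alone, after they had been seen. In cluster 16, 9 of 23 tested collagens had an unadjusted p under 0.05 with MGHS higher (5.91% of all genes), 0 with MGHS lower (6.49%), and 8 did not overlap (7.69%). In the pericyte cluster 20 it was 10 of 23 (4.91%), 0 (3.92%) and 9 (5.55%). None passed the adjusted threshold with edgeR in either (0% of all genes in both), while DESeq2 called 0 in cluster 16 (1.85% of all genes) and 4 in cluster 20 (0.867%).

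In blood endothelial-like nuclei COL4A1, COL4A2, COL13A1 and COL15A1, which had their highest means there, overlapped between the groups. COL4A1 stood at 1099, 860 and 1205 CPM in MGNS 1 to 3, against 1082, 1527 and 1240 CPM in MGHS 1 to 3, with overlap (0.28 ± 0.19 SE, adjusted p = 0.666), and COL4A2 at 634, 537 and 742 CPM and 640, 861 and 562 CPM. COL15A1 overlapped too, at 408, 179 and 158 CPM and 302, 257 and 340 CPM. COL12A1 was lower in MGHS, at 968, 1033 and 887 CPM and 581, 604 and 877 CPM (-0.48 ± 0.20 SE, adjusted p = 0.497). Of 19 collagens tested, 4 had an unadjusted p under 0.05 with MGHS higher (5.57% of all genes) and 1, COL12A1, with MGHS lower (3.79%). The groups did not overlap in 2 of these 19 with MGHS higher (8.17%) and in 1 with MGHS lower (7.16%). None passed the adjusted threshold with edgeR (0% of all genes), and DESeq2 called 2 (0.834%).

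Collagens led by fibroblast-like nuclei were mixed in these endothelial nuclei, where COL12A1 stood lower in MGHS, as given, and COL5A2 averaged 107 ± 29.99 CPM in MGNS and 88.1 ± 43.9 CPM in MGHS (SD, n = 3 each), with overlap. COL3A1 stood at 56.8, 29.7 and 50.8 CPM and 68.5, 110 and 202 CPM (1.51 ± 0.41 SE, adjusted p = 0.424), and COL1A1 at 18.9, 12.5 and 23.4 CPM and 34.8, 46.8 and 95.6 CPM (1.73 ± 0.42 SE, adjusted p = 0.320). Both are low beside fibroblast-like nuclei, and MGHS 3 was highest in each. COL1A2, which overlapped, averaged 37.1 ± 13.02 and 76.9 ± 36.9 CPM, and COL17A1 9.02 ± 3.90 and 14.2 ± 7.78 CPM, in MGNS and MGHS (SD, n = 3 each).

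In lymphatic endothelial-like nuclei, 15 collagens were tested, none passed the adjusted threshold with edgeR (0.0537% of all genes) or DESeq2 (0.779%), 4 had an unadjusted p under 0.05 with MGHS higher (4.87%), 0 with MGHS lower (4.2%) and 3 did not overlap (7.29%). COL5A2 stood at 30.2, 9.49 and 25.6 CPM in MGNS 1 to 3, against 76.2, 74.1 and 68.7 CPM in MGHS 1 to 3, well apart (1.75 ± 0.38 SE, adjusted p = 0.143). COL4A1 stood at 124, 150 and 68.1 CPM and 168, 211 and 206 CPM (0.79 ± 0.29 SE, adjusted p = 0.442). COL24A1, low in this class, was also apart, at 3.77, 5.69 and 8.52 CPM and 19.1, 21.4 and 39.6 CPM (2.20 ± 0.53 SE, adjusted p = 0.191 with edgeR). The 2 collagens highest in this class overlapped between groups, COL23A1 at 330, 507 and 285 CPM and 556, 400 and 498 CPM and COL21A1 at 191, 467 and 89.4 CPM and 359, 291 and 617 CPM. COL3A1 was uneven, at 396, 24.7 and 34.1 CPM and 165, 92.2 and 252 CPM. Group means in MGNS and MGHS were 46.3 ± 59.7 and 68.2 ± 38.3 CPM for COL1A1, 52.1 ± 57.1 and 112 ± 71.1 CPM for COL1A2, 118 ± 42.1 and 129 ± 28.8 CPM for COL4A2 and 10.9 ± 8.50 and 23.9 ± 17.4 CPM for COL6A3 (SD, n = 3 each).

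Of the collagens that basal-like nuclei hold above background, COL17A1, COL4A5 and COL4A6 overlapped between the groups, COL7A1 was narrowly apart and COL5A2 was apart. COL17A1 stood at 167, 202 and 163 CPM in MGNS 1 to 3, against 216, 193 and 182 CPM in MGHS 1 to 3 in basal-like nuclei, with overlap (0.28 ± 0.14 SE, adjusted p = 0.365). COL4A5 stood at 207, 229 and 205 CPM and 324, 224 and 223 CPM and COL4A6 at 82.1, 128 and 108 CPM and 178, 98.6 and 103 CPM, both overlapping. COL7A1 stood at 24.3, 27.4 and 25.3 CPM and 36.6, 34.3 and 27.7 CPM, narrowly apart (0.48 ± 0.16 SE, adjusted p = 0.231). In cycling keratinocytes COL17A1 averaged 201 ± 30.5 and 221 ± 22.1 CPM and COL7A1 26.4 ± 2.14 and 31.9 ± 1.16 CPM (SD, n = 3 each). The fits were scaled by the trimmed mean of M-values (TMM), which puts log2 fold changes 0.13 higher than plain CPM in basal-like nuclei, 0.15 in cycling, 0.24 in granular-like and 0.26 in all keratinocyte-like nuclei, so CPM differences there are smaller than the fitted ones.

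The 4 smallest p-values among the collagens of basal-like nuclei were those of COL3A1, COL5A2, COL1A1 and COL1A2. Of these, COL5A2 stood well above the T or NK-like level in UMIs per nucleus, and the other 3 close to it. COL3A1 stood at 16.8, 20.3 and 14.2 CPM and 62.6, 40.4 and 82.5 CPM, without overlap (1.99 ± 0.28 SE, adjusted p = 0.116). COL1A1 stood at 5.89, 8.77 and 4.92 CPM and 16.8, 15.4 and 34.8 CPM (1.92 ± 0.38 SE, adjusted p = 0.157), and COL1A2 at 9.81, 16.6 and 12.2 CPM and 29.9, 23.3 and 63.6 CPM (1.74 ± 0.40 SE, adjusted p = 0.171). COL5A2 stood at 12.8, 14.98 and 20.4 CPM and 30.1, 36.5 and 48.0 CPM (1.39 ± 0.27 SE, adjusted p = 0.152). Among these, MGHS 3 was highest in each gene. Group means of the remaining genes were 2.66 ± 1.14 and 5.13 ± 1.75 CPM for COL4A1, 2.28 ± 0.597 and 3.36 ± 1.74 CPM for COL4A2 and 2.33 ± 0.444 and 5.41 ± 2.52 CPM for COL6A3 (SD, n = 3 each). Of 28 collagens tested in basal-like nuclei, none passed the adjusted threshold with edgeR (0.00705% of all genes), DESeq2 called 5 (3.31%) and limma-voom 1 (0.219%), 10 had an unadjusted p under 0.05 with MGHS higher (8.33% of all genes), 0 with MGHS lower (7.19%) and 9 did not overlap (7.96%).

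In cycling keratinocytes COL5A2, COL3A1 and COL1A2 had the smallest p-values among the collagens. COL5A2 stood at 24.0, 31.5 and 21.9 CPM in MGNS 1 to 3, against 46.9, 59.6 and 51.8 CPM in MGHS 1 to 3, without overlap (1.20 ± 0.22 SE, adjusted p = 0.0688). COL3A1 stood at 24.0, 14.4 and 12.5 CPM and 37.6, 75.9 and 86.9 CPM (2.17 ± 0.39 SE, adjusted p = 0.0801), and COL1A2 at 9.79, 12.6 and 15.03 CPM and 23.2, 46.1 and 59.4 CPM (1.95 ± 0.37 SE, adjusted p = 0.0801), both apart. COL1A1 averaged 7.34 ± 3.76 and 25.7 ± 13.8 CPM (SD, n = 3 each) and overlapped. Of 15 collagens tested, none passed with edgeR (0.00956% of all genes), DESeq2 called 4 (1.97%), 5 had an unadjusted p under 0.05 with MGHS higher (8.24%), 0 with MGHS lower (6.32%) and 5 did not overlap (6.24%).

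COL28A1, the collagen of the spinous-like and granular-like layers, overlapped in both, at 115, 82.4 and 134 CPM in MGNS 1 to 3, against 85.2, 176 and 119 CPM in MGHS 1 to 3 in spinous-like nuclei and at 265, 72.4 and 222 CPM and 152, 149 and 243 CPM in granular-like nuclei. In spinous-like nuclei COL4A5 stood at 9.01, 13.7 and 8.14 CPM and 20.8, 15.3 and 23.1 CPM (0.93 ± 0.31 SE, adjusted p = 0.340) and COL4A6 at 2.43, 5.53 and 4.62 CPM and 14.8, 7.91 and 10.6 CPM (1.35 ± 0.40 SE, adjusted p = 0.283), both apart. Of 18 collagens tested there none passed with edgeR (0% of all genes) or DESeq2 (1.96%), 5 had an unadjusted p under 0.05 with MGHS higher (5.27%), 0 with MGHS lower (6.19%) and 5 did not overlap (7.6%). Group means in MGNS and MGHS in spinous-like nuclei were 17.8 ± 6.18 and 47.2 ± 32.05 CPM for COL3A1, 14.7 ± 1.48 and 33.2 ± 17.1 CPM for COL1A2, 7.53 ± 1.72 and 18.2 ± 11.1 CPM for COL1A1, 5.69 ± 2.23 and 9.79 ± 5.05 CPM for COL17A1, 2.63 ± 0.821 and 3.88 ± 2.23 CPM for COL4A1 and 3.94 ± 1.41 and 3.23 ± 2.92 CPM for COL6A3 (SD, n = 3 each). In granular-like nuclei 23 collagens were tested, 0 passed with edgeR (0% of all genes) or DESeq2 (3.23%), 1 had an unadjusted p under 0.05 with MGHS higher (6.18%), 0 with MGHS lower (7.7%) and 0 did not overlap (4.29%). That gene was COL1A2, at 23.7, 14.9 and 12.7 CPM and 22.5, 13.2 and 62.7 CPM, where MGHS 3 alone stood above the others (1.05 ± 0.45 SE, adjusted p = 0.340). Group means there were 32.5 ± 11.5 and 45.2 ± 31.97 CPM for COL3A1, 11.5 ± 4.09 and 17.6 ± 13.8 CPM for COL1A1, 4.91 ± 0.0774 and 7.64 ± 3.11 CPM for COL17A1, 9.57 ± 1.58 and 5.94 ± 4.94 CPM for COL4A1, 4.73 ± 2.42 and 3.76 ± 1.99 CPM for COL4A2 and 5.49 ± 3.40 and 5.29 ± 3.50 CPM for COL6A3 (SD, n = 3 each).

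Summed over all keratinocyte-like nuclei, 36 collagens were tested, none passed with edgeR (0% of all genes), DESeq2 called 4 (6.32%), 8 had an unadjusted p under 0.05 with MGHS higher (9.07%), 0 with MGHS lower (8.21%) and 5 did not overlap (4.8%). COL3A1 stood at 23.0, 18.99 and 15.4 CPM in MGNS 1 to 3, against 44.7, 32.5 and 82.7 CPM in MGHS 1 to 3 (1.70 ± 0.30 SE, adjusted p = 0.134), and COL5A2 at 10.9, 11.5 and 14.1 CPM and 17.7, 22.5 and 34.5 CPM (1.25 ± 0.24 SE, adjusted p = 0.137), both apart. The log2 fold change was 1.53 ± 0.34 (SE) for COL1A2 and 1.64 for COL1A1, both with an adjusted p of 0.148. COL17A1 (99.3 ± 13.6 and 99.1 ± 12.2 CPM) and COL7A1 (14.2 ± 1.07 and 16.2 ± 1.83 CPM) were close, as were COL4A1 (3.81 ± 0.683 and 5.13 ± 2.72 CPM), COL4A2 (2.62 ± 0.762 and 3.39 ± 1.65 CPM) and COL6A3 (3.01 ± 0.204 and 4.84 ± 2.63 CPM; SD, n = 3 each). This sum mixes the layers, so a shift in their shares and a change within a layer cannot be told apart in it. COL17A1 averaged 187 CPM in basal-like and 6.27 CPM in granular-like nuclei, for example.

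The background class was fitted in the same way, a choice made after the clusters were seen. COL3A1 in T or NK-like nuclei stood at 87.0, 72.2 and 48.9 CPM in MGNS 1 to 3, against 80.3, 136 and 208 CPM in MGHS 1 to 3, with overlap (0.97 ± 0.34 SE, adjusted p = 0.564). Of 19 collagens tested, 18 had a log2 fold change above 0 (50.6% of all genes), none passed with edgeR (0.00848% of all genes) or DESeq2 (0.763%), 2 had an unadjusted p under 0.05 with MGHS higher (3.6%), 0 with MGHS lower (3.47%) and 1, COL4A2, did not overlap (6.78%). Group means in MGNS and MGHS were 50.1 ± 15.3 and 84.9 ± 49.4 CPM for COL1A2, 34.8 ± 15.8 and 61.5 ± 31.8 CPM for COL1A1, 5.85 ± 2.25 and 12.9 ± 9.89 CPM for COL4A1, 2.79 ± 0.702 and 8.41 ± 5.44 CPM for COL4A2, 6.72 ± 0.532 and 11.97 ± 6.73 CPM for COL6A3 and 7.96 ± 1.75 and 9.63 ± 2.83 CPM for COL17A1 (SD, n = 3 each).

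The difference between classes was tested with an interaction term. Between all keratinocyte-like and T or NK-like nuclei, 35 collagens were tested and none passed the adjusted threshold with edgeR (0.00609% of all genes); 7 had an unadjusted p under 0.05 (10.9% of all genes). The log2 fold change of COL3A1 was 0.71 ± 0.31 (SE) larger in keratinocyte-like nuclei (adjusted p = 0.454) and that of COL5A2 0.97 ± 0.33 (SE) larger (adjusted p = 0.341). Between fibroblast-like and all keratinocyte-like nuclei, 0 of 37 passed (0.012% of all genes) and 5 had an unadjusted p under 0.05 (11.2%). COL7A1 (0.92 ± 0.24 SE, adjusted p = 0.234) and COL4A6 (0.99 ± 0.25 SE, adjusted p = 0.219) had the larger fold change in fibroblast-like nuclei, and neither difference passed. Both interactions use the sum over all keratinocyte-like nuclei, so the mix of layers in each animal enters them. The part of that mix in these differences was not tested.

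**Figure D4:**
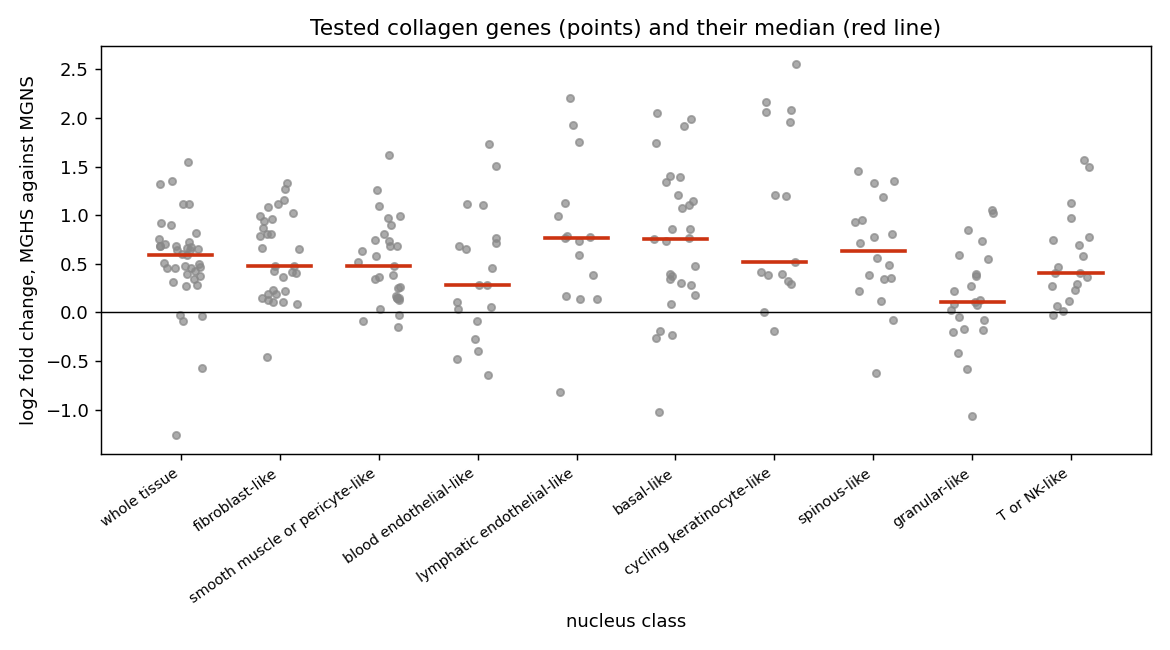
Log2 fold change, MGHS against MGNS, of each tested collagen (grey points) and their median (red line) in whole-tissue sums and 9 nucleus classes. The median lies above 0 in each, from 0.10 in granular-like to 0.76 in basal-like and lymphatic endothelial-like nuclei. The fold changes are scaled by TMM, which puts those of granular-like nuclei 0.24 higher than plain CPM, more than their median. With 1 animal left out it runs from 0.49 to 0.91 in basal-like, from 0.38 to 1.02 in lymphatic endothelial-like, from 0.13 to 0.76 in blood endothelial-like and from 0.00 to 0.29 in granular-like nuclei.

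Partners of collagen were read from 8 lists of genes that fold, trim, cross-link, break down, bind or regulate it. The lists were chosen with earlier results of these data known, so a call on them is a description. In fibroblast-like nuclei 2 of their genes passed the adjusted threshold with edgeR, both lower in MGHS. The number tested of each list is given below. The shares of all genes past this threshold in the class and its clusters are given above with the collagen counts. LTBP2, a matrix protein of elastic fibres, fell from 52.6 ± 3.76 to 15.4 ± 2.95 CPM (SD, n = 3 each), a log2 fold change of -1.76 ± 0.22 (SE) with an adjusted p of 0.0274. CD44, a receptor of hyaluronan and collagen, fell from 1061 ± 185 to 400.1 ± 21.4 CPM (-1.40 ± 0.19 SE, adjusted p = 0.0485). Neither call held with any 1 of the 6 animals left out (adjusted p from 0.0589 to 0.11 for LTBP2 and from 0.077 to 0.163 for CD44 with edgeR). LTBP2 also fell in cluster 0 alone (62.5 ± 3.99 to 16.2 ± 3.99 CPM, -1.92 ± 0.24 SE, adjusted p = 0.0442). In cluster 6 alone CD44 fell (821 ± 326 to 266.7 ± 25.3 CPM, -1.61 ± 0.29 SE, adjusted p = 0.0488) and FBN2, a microfibril protein, rose (34.8 ± 21.7 to 158 ± 33.9 CPM, 2.24 ± 0.38 SE, adjusted p = 0.0421). These cluster calls were lost in 5 of 6 leave-outs each, the exceptions being MGHS 3 for LTBP2 and MGNS 2 for CD44 and FBN2.

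The enzymes that act on collagen chains did not pass in fibroblast-like nuclei. At an unadjusted p under 0.05, the share of all genes in this class was 7.14% with MGHS higher and 6.32% with MGHS lower, and the counts of each list stand beside these. Of 22 genes of chain modification and folding, all tested, 4 had an unadjusted p under 0.05 with MGHS higher, led by the prolyl hydroxylases P4HA2 (36.6 ± 7.03 and 75.6 ± 32.4 CPM in MGNS and MGHS, adjusted p = 0.210 with edgeR) and P3H2 (34.2 ± 18.8 and 72.1 ± 14.2 CPM, adjusted p = 0.262). Of 13 tested genes of trimming and cross-linking, 2 were higher and 2 lower, with the cross-linking enzyme LOX at 115 ± 15.4 and 247 ± 49.7 CPM (adjusted p = 0.0728) and the propeptide-cutting ADAMTS3 at 200.1 ± 14.7 and 118 ± 9.11 CPM (adjusted p = 0.106). Of 13 tested genes of breakdown, 2 were higher and 4 lower, with the inhibitor TIMP3 at 130.4 ± 6.80 and 238 ± 49.7 CPM (adjusted p = 0.129) and MMP16 at 330 ± 83.9 and 624 ± 120 CPM (adjusted p = 0.176).

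Of 9 tested receptors, none was higher and 2 were lower at an unadjusted p under 0.05, CD44 and the collagen receptor kinase DDR2 (942 ± 200.4 and 652 ± 97.0 CPM, adjusted p = 0.362 with edgeR). Of 15 tested fibril partners 4 were higher, with FBN2 at 139 ± 53.3 and 346 ± 56.4 CPM (adjusted p = 0.134) and the proteoglycan OGN at 111 ± 27.0 and 199 ± 63.5 CPM (adjusted p = 0.266). None of 13 basement membrane partners reached that level, the 2 smallest p-values being those of LAMC1 (425 ± 80.4 and 308 ± 72.3 CPM, adjusted p = 0.444) and NID2 (173 ± 54.3 and 125 ± 27.2 CPM, adjusted p = 0.490), nor did any of 8 hemidesmosome genes, led by CD151 (19.4 ± 3.10 and 29.0 ± 9.23 CPM, adjusted p = 0.409) and ITGB4 (5.88 ± 1.12 and 9.04 ± 0.974 CPM, adjusted p = 0.433). Of 16 tested genes of TGF beta signalling and matrix control, 2 were higher and 3 lower, with CCN1 at 212 ± 22.4 and 591 ± 178 CPM (adjusted p = 0.0660) beside LTBP2.

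No partner gene passed in smooth muscle or pericyte-like nuclei with edgeR. The smallest p-values of each list there were those of CREB3L1 and FKBP14 in modification and folding, LOX (49.1 ± 14.5 and 110.5 ± 20.9 CPM in MGNS and MGHS, adjusted p = 0.168) and LOXL2 in cross-linking, MMP11 and PEPD in breakdown, the collagen IV receptor ADGRG6 (15.3 ± 2.55 and 83.2 ± 37.8 CPM, adjusted p = 0.128) and CD44 (486 ± 85.98 and 249 ± 20.8 CPM, adjusted p = 0.170) among receptors, FBN2 (100.1 ± 44.2 and 324 ± 24.0 CPM, adjusted p = 0.145) and FMOD among fibril partners, NID2 and LAMA2 in the basement membrane, LAMB3 and ITGA6 in hemidesmosomes and LTBP2 and CCN1 in matrix control. In basal-like nuclei none passed either. The 2 smallest of each list there were P3H2 (314 ± 31.0 and 147 ± 37.7 CPM, adjusted p = 0.171) and CRTAP, LOXL1 and TGM2, MMP9 and TIMP2, ITGA2 and DDR1, SPARC (5.11 ± 0.993 and 14.5 ± 4.38 CPM, adjusted p = 0.148) and LUM, LAMB3 (59.3 ± 10.2 and 84.0 ± 5.52 CPM, adjusted p = 0.217) and LAMA4, LAMB3 and ITGB4, and CCN1 and LTBP1 (47.0 ± 10.9 and 18.5 ± 6.40 CPM, adjusted p = 0.185).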

How the data were processed

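Gene-by-barcode UMI counts were deposited by the authors as 1 filtered matrix per lamb, with no normalization. Per the file headers these counts were made with Cell Ranger 8.0.0, while the submitters' processing notes name version 2.1.1; genome build, annotation and cell-calling rule: not given in the sources used here. Names and gene neighbours, but no coordinates, came from RefSeq's table for ARS-UI_Ramb_v3.0, which held all 26741 gene identifiers. The deposited matrices held 67553 barcodes and 268011559 UMIs.

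Barcodes under 300 genes or over 10% mitochondrial UMIs were dropped, as were the top 0.5% by UMIs, and 3661 doublets were removed by Scrublet scores (in MGNS 1 and MGNS 2, where its threshold marked under 0.5%, as the highest scores at 0.8% per 1000 nuclei). Nuclei were clustered in scanpy 1.11.5 on 2000 variable genes without collagens, 30 components, 5 neighbours per library and resolution 0.8, and clusters were named from marker lists; clusters 7, 8 and 14 stayed unnamed. Cluster 8 took 3.99% to 30.7% of an animal's nuclei. It held 5093 nuclei with a median of 577 UMIs, and its leading genes include LY6D, KRT36, KRTDAP, S100A9, KRT13 and KRT6A. It is in none of the keratinocyte-like classes, so the layers and the keratinocyte-like sums leave it out.

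Counts were summed per animal and class where every animal had at least 20 nuclei. MGHS was compared with MGNS in edgeR 4.0.16 (R 4.3.3) by the quasi-likelihood test with robust dispersion, TMM scaling and genes filtered by filterByExpr at a count of 10, with Benjamini-Hochberg adjustment over all genes tested in a class and a threshold of 0.05; the script was tested on simulated data. Standard errors of log2 fold changes are the estimate divided by the root of F, and the interaction fits had the animal as a block. DESeq2 1.42.0, limma 3.58.1, other scaling, no filter, other nucleus filters and leaving out each animal were alternatives. The animal is the replicate. Depth differed between animals and classes, and low CPM values rest on few UMIs.

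In each class the per-animal values are given for up to 8 of the highest collagens and 8 fixed ones, and partner genes are those past the threshold or the 2 with the smallest p of each list in fibroblast-like, smooth muscle or pericyte-like and basal-like nuclei. The members and lists were chosen with earlier results of these data known. In whole-tissue sums COL2A1, COL9A2 and COL22A1 did not pass the filter on low counts; in fibroblast-like nuclei 12 of the 43 did not. Members that passed a filter through the group where they are high had to differ, so counts over them are descriptions. Several collagens lie next to each other in the genome (COL4A1 and COL4A2, COL4A5 and COL4A6, COL5A2 and COL3A1, COL6A1 and COL6A2), and no source used here says how reads of neighbours were assigned.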

Additional observations from a re-analysis of the deposited data

How the results depend on the processing

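No collagen passed the adjusted threshold in any class as reported, and the count stayed 0 under every alternative run in spinous-like, granular-like and T or NK-like nuclei, in cluster 16 and for both interactions. With DESeq2 the count was 8 in whole tissue, 4 in all keratinocyte-like, 5 in basal-like, 4 in cycling, 6 in fibroblast-like, 2 in smooth muscle or pericyte-like and 2 in blood endothelial-like nuclei, 5 in cluster 0, 5 in cluster 6 and 4 in cluster 20. With limma-voom it was 4 in whole tissue, 1 in basal-like, 2 in fibroblast-like nuclei and 3 in cluster 6. Without the filter on low counts it was 3 in basal-like, 5 in cycling, 6 in fibroblast-like, 1 in smooth muscle or pericyte-like, 4 in blood and 3 in lymphatic endothelial-like nuclei, 4 in cluster 0, 6 in cluster 6 and 5 in cluster 20. With more doublets removed it was 1 in fibroblast-like nuclei and 1 in cluster 6, and with at least 500 genes per nucleus 1 in cluster 6; the cause was not tested.

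With the replicate number as a block the count was 3 in cycling, 1 in blood and 1 in lymphatic endothelial-like nuclei, 1 in cluster 6 and 3 in cluster 20; no class had a correlation of same-numbered animals over 0.1 in all 3 pairs, so the numbers are not treated as pairs. In blood endothelial-like nuclei the 3 correlations were 0.052, 0.117 and 0.198 and each animal correlated best with its own number, a hint from the data and not the design, and in lymphatic endothelial-like nuclei they were 0.0048, 0.215 and 0.169. Leaving out each animal in turn gave counts of 0 to 1 in basal-like nuclei (1 without MGHS 2), 0 to 2 in cycling nuclei (2 without MGHS 1), 0 to 1 in cluster 20 (1 without MGHS 3) and 0 elsewhere. The median log2 fold change fell without MGHS 3 from 0.57 to 0.36 in all keratinocyte-like, from 0.76 to 0.49 in basal-like, from 0.64 to 0.28 in spinous-like, from 0.10 to 0.00 in granular-like, from 0.76 to 0.38 in lymphatic endothelial-like and from 0.41 to 0.10 in T or NK-like nuclei, and without MGHS 2 from 0.28 to 0.13 in blood endothelial-like nuclei and from 0.45 to 0.27 in cluster 6, and without MGNS 2 from 0.76 to 0.50 in basal-like nuclei and from 0.66 to 0.43 in cluster 20. It was larger without MGNS 3 in all keratinocyte-like (0.86), granular-like (0.29) and blood endothelial-like nuclei (0.76), without MGNS 1 in granular-like (0.18) and blood endothelial-like nuclei (0.70), without MGHS 2 in granular-like (0.29) and cycling nuclei (0.87) and without MGHS 3 in cluster 6 (0.69). Of 694 values of 51 named log2 fold changes under alternatives, 0 reversed, 604 stayed on their side of the threshold, 57 passed only under the alternative and 33, all of LTBP2, CD44 and FBN2, passed only as reported. With collagens kept in the clustering, LTBP2 and CD44 had an adjusted p of 0.0606 each in fibroblast-like nuclei with edgeR, and CD44 one of 0.0736 with the replicate block. Clustering with collagens kept was not run for whole tissue and single clusters, and DESeq2, limma and the block were not run for the interactions. With 3 animals a group, precision is limited by their spread, and in classes of few nuclei also by the UMIs counted.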

Other observations

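COL11A1, a fibrillar chain best known from cartilage, had 401 UMIs in all retained nuclei, and in the T or NK-like class it was found mainly in cluster 9, whose leading genes include GNLY, CTSW, CCL5, KLRK1, PRF1 and NKG7, genes of cytotoxic lymphocytes. It stood there at 12.8, 8.76 and 76.6 CPM in MGNS 1 to 3 and 200, 68.4 and 50.2 CPM in MGHS 1 to 3. In clusters 10 and 15 of the same class it was at 0 to 2.79 CPM. It was chosen after its values were seen.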
